A study of Homo sapiens with 9 samples.

Results

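Integrins are the receptors by which a cell holds on to the matrix around it, and each one is a pair of an alpha and a beta subunit that must meet before the receptor reaches the cell surface. The alpha subunit largely sets which ligand is bound, and the tail of the beta subunit links the receptor to the cytoskeleton through talin and kindlin. In breast cancer cells integrins are known for their part in adhesion, migration and the sensing of a stiff matrix. The 10 genes described here were chosen by symbol, with earlier results of these data known. These genes encode subunits of the collagen, laminin, fibronectin and vitronectin receptors (ITGA2, ITGA3, ITGA5, ITGA6, ITGAV, ITGB1, ITGB3, ITGB4, ITGB5 and ITGB6). They are 10 of 21619 genes in the tables, and 9 of them were among the 13458 genes that passed the filter on low counts.

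The data are polysome-associated RNA from 9 xenograft tumours of the human breast cancer cell line MDA-MB-231, which lacks hormone receptors and HER2 amplification and here carried the ribosomal tag EGFP-L10a. The cells went into the mammary fat pad of mice, either alone (4 tumours, numbered 9, 11, 12 and 13) or in a 1:1 mixture with mesenchymal stem cells (MSC) derived from human bone marrow (5 tumours, numbered 1, 6, 7, 10 and 15). All tumours were taken after 3 weeks, each from a different mouse, and tagged polysomes were pulled down from whole tumour lysate. Neither the promoter of the tag nor the strain, age and sex of the mice is given in the sources used here, and the MSC are human too, so their RNA cannot be told from that of the cancer cells by sequence. No total RNA was analysed here, so a change of RNA amount and a change of ribosome association cannot be told apart, nor can fewer cells of a type and less RNA per cell.

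Gene totals ran from 24616792 to 65275226 counts per library. Markers of the labelled line were present. VIM, CD44, AXL, KRT18 and EGFR summed to between 7585 and 13878 CPM (counts per 1e6 counts, after TMM scaling of the library totals). VIM alone made up most of this, at 6742 to 12516 CPM. Of 5 genes listed as low or absent in the line, PGR and CDH1 stayed under 0.2 CPM in every tumour. ESR1 reached 0.208 CPM, while GATA3 ran from 3.73 to 9.89 CPM and ERBB2 from 17.8 to 36.2 CPM. Tumour 15 with MSC stood apart for 10 fibroblast and MSC markers, which summed to 118 CPM there, to between 18.7 and 34.0 CPM in the other tumours with MSC, and to between 13.04 and 22.8 CPM without MSC. DCN, the matrix proteoglycan decorin, was 18.9 CPM in tumour 15 and at most 0.207 CPM elsewhere. Endothelial markers summed to between 7.25 and 13.6 CPM, with CDH5, EMCN and CLDN5 under 0.2 CPM throughout. Of the 3 endothelial markers tested, PECAM1 was lower with MSC (log2 -0.94 ± 0.19, edgeR adjusted p = 0.00745). TIE1 went the other way (log2 0.72 ± 0.28, edgeR adjusted p = 0.112) and did not pass. KDR did not pass either (log2 -0.37 ± 0.38, edgeR adjusted p = 0.588). The 7 smooth muscle and pericyte markers summed to 33.2 to 41.1 CPM with MSC and 20.1 to 27.9 CPM without, with no overlap. Most of that sum was MCAM, which was higher with MSC (log2 0.67 ± 0.13, edgeR adjusted p = 0.00632). The part of such cells in the results below was not tested.

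The part of the beta subunits that joins them to talin and kindlin is short, and its coding sequence shows how the subunits described here differ. Below are the last 120 coding bases, without the stop codon, of the 4 beta subunits that were detected, from GENCODE release 29 transcripts, written 5′ to 3′ on the coding strand. Capitals mark codons of the NPxY motif, the docking site of talin-like and kindlin-like domains, found by a search of the last 150 codons in frame.
ITGB1: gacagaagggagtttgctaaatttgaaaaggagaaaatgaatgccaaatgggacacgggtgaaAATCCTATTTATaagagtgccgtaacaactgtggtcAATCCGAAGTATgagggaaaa
ITGB3: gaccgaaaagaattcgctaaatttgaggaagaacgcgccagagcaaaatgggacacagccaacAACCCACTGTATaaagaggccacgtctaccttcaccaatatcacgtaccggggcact
ITGB5: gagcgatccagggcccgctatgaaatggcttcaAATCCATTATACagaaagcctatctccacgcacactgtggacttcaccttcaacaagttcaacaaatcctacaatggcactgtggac
ITGB4: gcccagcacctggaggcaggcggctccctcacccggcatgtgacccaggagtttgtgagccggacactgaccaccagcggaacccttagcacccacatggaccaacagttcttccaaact
ITGB1 has 2 such motifs and ITGB3 and ITGB5 have 1 each by this strict spelling, while ITGB4 has 0 in its last 150 codons. ITGB4, with 1822 codons against 798 in ITGB1, is the subunit with a long tail that binds plectin in hemidesmosomes. The alpha subunits instead share the GFFKR motif just inside the membrane, the contact point with the beta tail, shown here in capitals with 15 bases on either side for the 5 alpha subunits.
ITGA2: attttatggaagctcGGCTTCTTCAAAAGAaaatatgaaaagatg
ITGA3: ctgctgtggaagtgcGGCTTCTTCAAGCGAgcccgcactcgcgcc
ITGA5: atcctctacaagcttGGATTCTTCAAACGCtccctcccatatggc
ITGA6: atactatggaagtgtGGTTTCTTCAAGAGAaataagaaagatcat
ITGAV: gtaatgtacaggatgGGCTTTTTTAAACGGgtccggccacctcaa
The same 15-base motif is spelled with different codons, and the genes also differ in base composition: GC makes up 60.2% of the coding bases of ITGA3 and 63.3% in ITGB4, against 41.3% in ITGB1 and 42.2% in ITGA2. Composition matters below, because log2 changes followed the GC content of the transcripts across all genes. Splice forms with other tails exist for several of these genes, and the gene counts do not separate them.

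Per kilobase of exon, ITGB1, the shared beta chain of the receptors for collagen, laminin and fibronectin, had the highest level of the 10 genes in all 9 tumours, at 153 ± 17.5 RPKM (reads per kilobase of exon, scaled as CPM) without MSC and 178 ± 22.8 with MSC (SD, n = 4 and 5). ITGA3 followed at a level of 45.2 ± 10.7 and 67.7 ± 10.1, then ITGA6 at 38.2 ± 4.48 and 39.6 ± 6.23, and ITGB5 at 22.7 ± 4.28 and 25.9 ± 3.40. The ranges of ITGA3 and ITGA6 overlapped over the 9 tumours, though ITGA3 was the higher in 8 of them. ITGA5 stood at 10.99 ± 1.795 without MSC and 17.0 ± 3.37 with MSC, above ITGA2 and ITGB4 in every tumour. ITGA2 and ITGB4 could not be ordered, since ITGA2 had the higher level in 5 of 9 tumours. ITGAV, the partner of ITGB3, ITGB5 and ITGB6, was lower than either at 2.17 ± 0.113 and 2.73 ± 0.408, and ITGB3 lower again at 0.689 ± 0.166 and 1.21 ± 0.174. Lengths are the union of exons in GENCODE release 29, not the annotation used for counting, so levels of different genes are approximate.

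**Figure D1:**
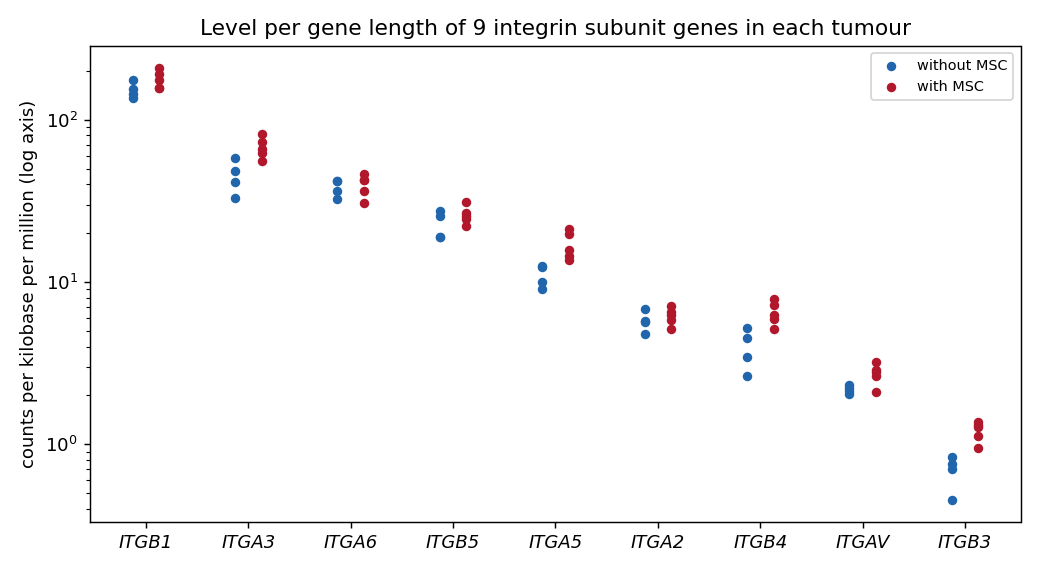
Level of 9 integrin subunit genes in RPKM on a log axis, 1 point per tumour, blue without MSC (n = 4) and red with MSC (n = 5). ITGB1 is the highest in every tumour and ITGB3 the lowest of the 9 shown, and ITGB6 is left out because only 4 counts were found over 9 libraries.

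ITGB6, the epithelial partner of ITGAV that activates latent TGF-beta, was at the floor of detection. It had 3 counts in tumour 13 without MSC, 1 count in tumour 10 with MSC and 0 in the other 7 libraries, where a count of 0 allows up to 0.0456 to 0.124 CPM (3 counts, counting error only). It did not pass the filter on low counts, no fold is given for it, and the receptor of ITGAV with ITGB6 could not be followed at this depth.

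With MSC, 4 of the 9 tested subunits were higher (ITGA3, ITGA5, ITGB3 and ITGB4), none was lower and 5 did not pass (edgeR quasi-likelihood test, threshold of 0.05 on p adjusted over all genes). Of all 13458 genes tested, 4.18% were called higher and 3.6% lower by the same rule, 7.78% in either direction. Because the members were chosen with earlier results of these data known, the count describes this list and does not test it. Among 5 other integrin genes tested, described below, 1 rose and 1 fell, with a median log2 change of -0.12. At an unadjusted p under 0.05, edgeR gave 5 of the 9 higher and 0 lower, and DESeq2 and limma-voom with quality weights also called 4 higher and 0 lower. The median log2 change of the 9 subunits was 0.33, against 0.01 over all genes tested, and the log2 changes ran from 0.05 to 0.81. In the 4 that rose the increase was between 1.498-fold and 1.75-fold.

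**Figure D2:**
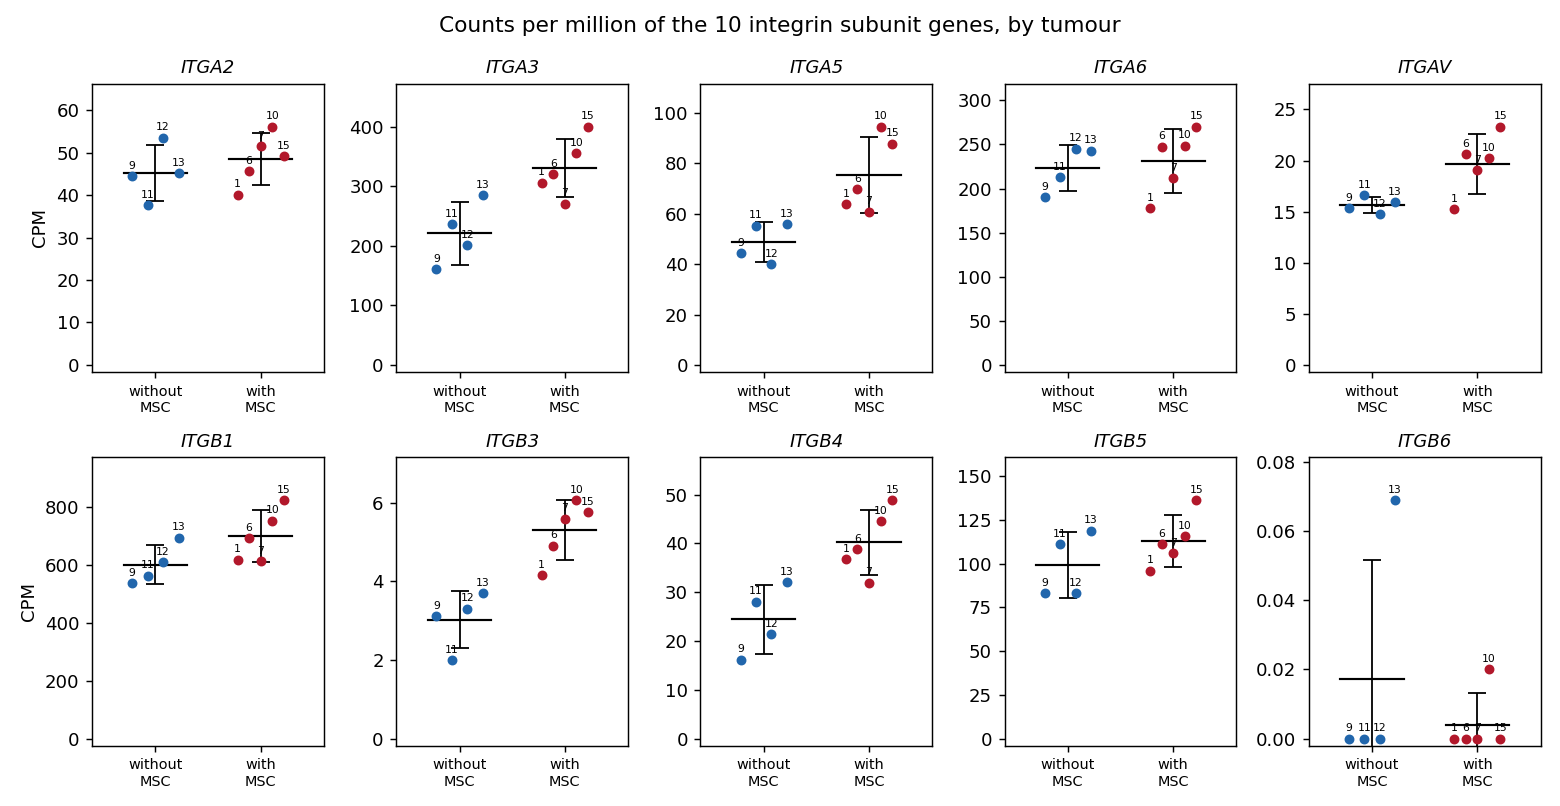
CPM of the 10 integrin subunit genes, 1 point per tumour with its number, blue without MSC (n = 4) and red with MSC (n = 5), with the mean (long line) and SD (error bar). The groups do not overlap for ITGA5 and ITGB3, while for ITGA2 and ITGA6 the means differ by less than either SD, and for ITGB6 each point is 0, 1 or 3 counts.

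Laminin receptors were represented by ITGA3, ITGA6 and ITGB4. ITGA3, which pairs with ITGB1 to bind laminin-332, measured 162, 236, 201 and 285 CPM in tumours 9, 11, 12 and 13 without MSC and 306, 321, 271, 355 and 401 CPM in tumours 1, 6, 7, 10 and 15 with MSC. Tumour 13 without MSC lay above tumour 7 with MSC, and the other tumours did not overlap between the groups. ITGA3 rose to 331 ± 49.3 CPM on average, from 221 ± 52.4 CPM (a log2 change of 0.58 ± 0.14 SE, adjusted p = 0.0200 in edgeR). ITGB4, the hemidesmosome subunit that pairs only with ITGA6, measured 16.2, 28.1, 21.4 and 32.0 CPM without MSC and 36.8, 38.8, 32.0, 44.6 and 48.9 CPM with MSC, in the same order of tumours. Its groups met at tumours 13 and 7, and the mean rose to 40.2 ± 6.62 CPM, from 24.4 ± 7.01 CPM (log2 0.72 ± 0.17, edgeR adjusted p = 0.0167). ITGA6, the alpha partner of ITGB4, measured 191, 213, 245 and 243 CPM without MSC and 178, 248, 212, 249 and 270.3 CPM with MSC. The lowest of the 9 ITGA6 values was in tumour 1 with MSC and the highest in tumour 15 with MSC, and the difference did not pass (log2 0.05 ± 0.12, edgeR adjusted p = 0.831).

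ITGA5, the alpha chain of the classical fibronectin receptor with ITGB1, measured 44.3, 55.3, 39.95 and 55.8 CPM in tumours 9, 11, 12 and 13 without MSC. With MSC it was 64.0, 69.8, 60.9, 94.6 and 87.8 CPM in tumours 1, 6, 7, 10 and 15, all above the tumours without MSC. The mean rose to 75.4 ± 14.97 CPM, from 48.8 ± 7.98 CPM (log2 0.63 ± 0.14, edgeR adjusted p = 0.0126). ITGB1 itself was 538, 562, 609 and 694 CPM without MSC and 618, 693, 613, 752 and 822 CPM with MSC. The groups overlapped widely and its difference did not pass (log2 0.22 ± 0.12, edgeR adjusted p = 0.270). ITGA2, whose pair with ITGB1 binds collagen, measured 44.6, 37.7, 53.6 and 45.1 CPM without MSC and 40.1, 45.7, 51.5, 56.2 and 49.1 CPM with MSC, with no difference past the test (log2 0.10 ± 0.12, edgeR adjusted p = 0.647).

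Among the receptors for the RGD sequence of vitronectin and fibronectin, ITGB3, the beta chain shared with the platelet fibrinogen receptor, showed the largest fold of the 9 tested subunits at the lowest level. It measured 3.12, 1.99, 3.31 and 3.70 CPM in tumours 9, 11, 12 and 13 without MSC and 4.16, 4.91, 5.60, 6.07 and 5.77 CPM in tumours 1, 6, 7, 10 and 15 with MSC. The groups did not overlap, as for ITGA5, which made 2 of 9 subunits against 5.13% of all tested genes whose tumours with MSC lay wholly above those without. No subunit lay wholly below, as 4.87% of tested genes did. The ITGB3 mean rose to 5.30 ± 0.764 CPM, from 3.03 ± 0.730 CPM (log2 0.81 ± 0.22, edgeR adjusted p = 0.0329). The platelet markers PF4, PPBP and GP9 were under 0.2 CPM in every tumour, the 5 platelet and megakaryocyte markers summed to at most 0.856 CPM, and ITGA2B, the platelet partner of ITGB3, was at most 0.132 CPM. ITGAV measured 15.4, 16.6, 14.7 and 15.9 CPM without MSC and 15.2, 20.6, 19.1, 20.2 and 23.3 CPM with MSC. Of the tumours with MSC only tumour 1 lay within the range of those without, but the difference did not pass (log2 0.33 ± 0.14, edgeR adjusted p = 0.135). ITGB5, the beta chain of another vitronectin receptor, measured 83.2, 111, 83.1 and 119 CPM without MSC and 96.1, 111, 106, 116 and 136 CPM with MSC, with overlapping groups (log2 0.19 ± 0.13, edgeR adjusted p = 0.369).

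**Figure D3:**
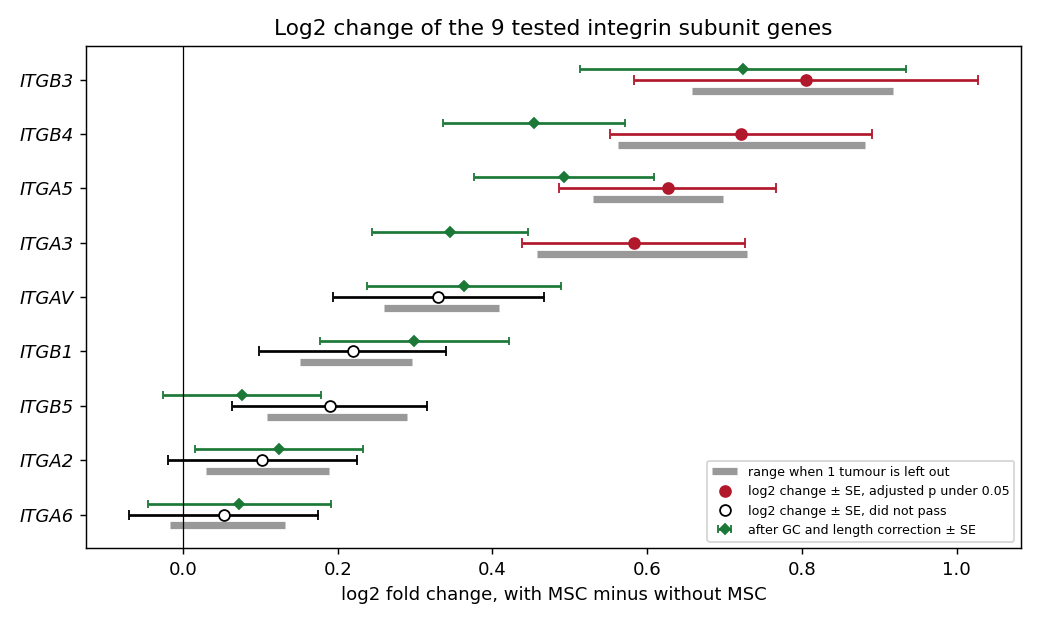
Log2 fold change, with MSC minus without MSC, of the 9 tested integrin subunit genes: circles with SE from all 9 tumours (red where the adjusted p was under 0.05), grey bars the range when 1 tumour is left out, green diamonds with SE after correction for GC content and length. The 4 genes that passed lie between 0.58 and 0.81, and the correction moves ITGA3 and ITGB4 the most of these, to 0.34 and 0.45.

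These calls did not hold when tumour 9 or tumour 12 without MSC was left out. Without tumour 9 or without tumour 12, 0 of the 9 subunits passed in edgeR, with 5 at an unadjusted p under 0.05 in either case. The log2 changes were then 0.46 and 0.53 for ITGA3, 0.58 and 0.54 for ITGA5, 0.82 and 0.84 for ITGB3, and 0.56 and 0.66 for ITGB4. That of ITGB3 was no smaller than the 0.81 from all 9 tumours. How far the losses come from fewer tumours was not tested. ITGA3 also lost its call without tumour 10 with MSC (adjusted p = 0.0523), and ITGB3 without any of tumours 6, 7, 9, 10, 11, 12 and 15 (adjusted p up to 0.0874). With tumour 15 left out, ITGA3 (0.50), ITGA5 (0.56) and ITGB4 (0.64) still passed, and ITGB3 (0.77) did not (adjusted p = 0.0644).

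Base composition moved with these results. Over all tested genes with a GC value, the median log2 change was -0.09 in the 4983 genes under 45% GC and 0.20 in the 1841 genes of at least 60% GC, of which 1.69% and 8.85% were called higher. The transcripts of the 4 subunits that rose had a GC content of 61.3% (ITGA3), 54.5% (ITGA5), 52.3% (ITGB3) and 63.7% (ITGB4). Those of ITGA2, ITGA6, ITGAV and ITGB1 had 38.3% to 42.9%, and that of ITGB5 54.3%. After offsets for GC content and length, the 4 subunits still passed in edgeR, at log2 changes of 0.34 ± 0.10 (ITGA3, adjusted p = 0.0474), 0.49 ± 0.12 (ITGA5, adjusted p = 0.0202), 0.72 ± 0.21 (ITGB3, adjusted p = 0.0474) and 0.45 ± 0.12 (ITGB4, adjusted p = 0.0306). The change of ITGA3 was thus smaller by a factor of more than 1.5 on the log2 scale, and so was that of ITGB4.

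Because subunits act in pairs, the log2 ratio of counts within each tumour was compared for 9 heterodimers and for 3 choices between beta partners of a shared alpha chain. This ratio does not depend on how a library is scaled. In 6 of the 12 pairs it differed between the groups (exact two-sided permutation test, p = 0.0159, the smallest that 5 against 4 tumours can give, adjusted p = 0.0317 over the 12 pairs). All 6 involve a subunit that rose, and several share a subunit, so they are not independent of one another. How often other pairs of genes differ in this way was not computed. ITGA3 gained on ITGB1 by 0.38 and ITGA5 gained on ITGB1 by 0.40 in the mean log2 ratio. ITGA3/ITGB1 went from -1.47 ± 0.238 to -1.08 ± 0.0643 and ITGA5/ITGB1 from -3.63 ± 0.239 to -3.23 ± 0.138 (SD, n = 4 and 5), so in both pairs the ratio spread less among the tumours with MSC.

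For the hemidesmosome receptor the balance of its own chains shifted. ITGA6/ITGB4 was 3.55, 2.92, 3.52 and 2.92 in tumours 9, 11, 12 and 13 without MSC and 2.27, 2.67, 2.73, 2.48 and 2.47 in tumours 1, 6, 7, 10 and 15 with MSC, a difference of -0.71 with no overlap. ITGB4 also gained on ITGB1, the other beta partner of ITGA6, by 0.53, from -4.66 ± 0.339 to -4.13 ± 0.0830. ITGA6/ITGB1 differed by -0.17 and did not pass (exact permutation p = 0.0476, adjusted p = 0.0816). Among the beta partners of ITGAV, ITGB3 gained on ITGB5 by 0.63, from -5.04 ± 0.522 to -4.41 ± 0.154, and ITGAV/ITGB3 differed by -0.51. Tumour 11 without MSC was farthest from the other tumours in both, at -5.79 for ITGB3/ITGB5 and 3.05 for ITGAV/ITGB3, and the differences without it were 0.38 and -0.29. ITGAV/ITGB5 (0.12), ITGAV/ITGB1 (0.10) and ITGA2/ITGB1 (-0.11) did not pass (exact permutation, adjusted p = 0.444 each), and the 2 pairs with ITGB6 rest on 4 counts and are not read. Without tumour 15 the differences of the 6 pairs were 0.37 (ITGA3/ITGB1), 0.40 (ITGA5/ITGB1), -0.69 (ITGA6/ITGB4), 0.52 (ITGB4/ITGB1), 0.66 (ITGB3/ITGB5) and -0.54 (ITGAV/ITGB3), each with an exact permutation adjusted p of 0.0571.

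**Figure D4:**
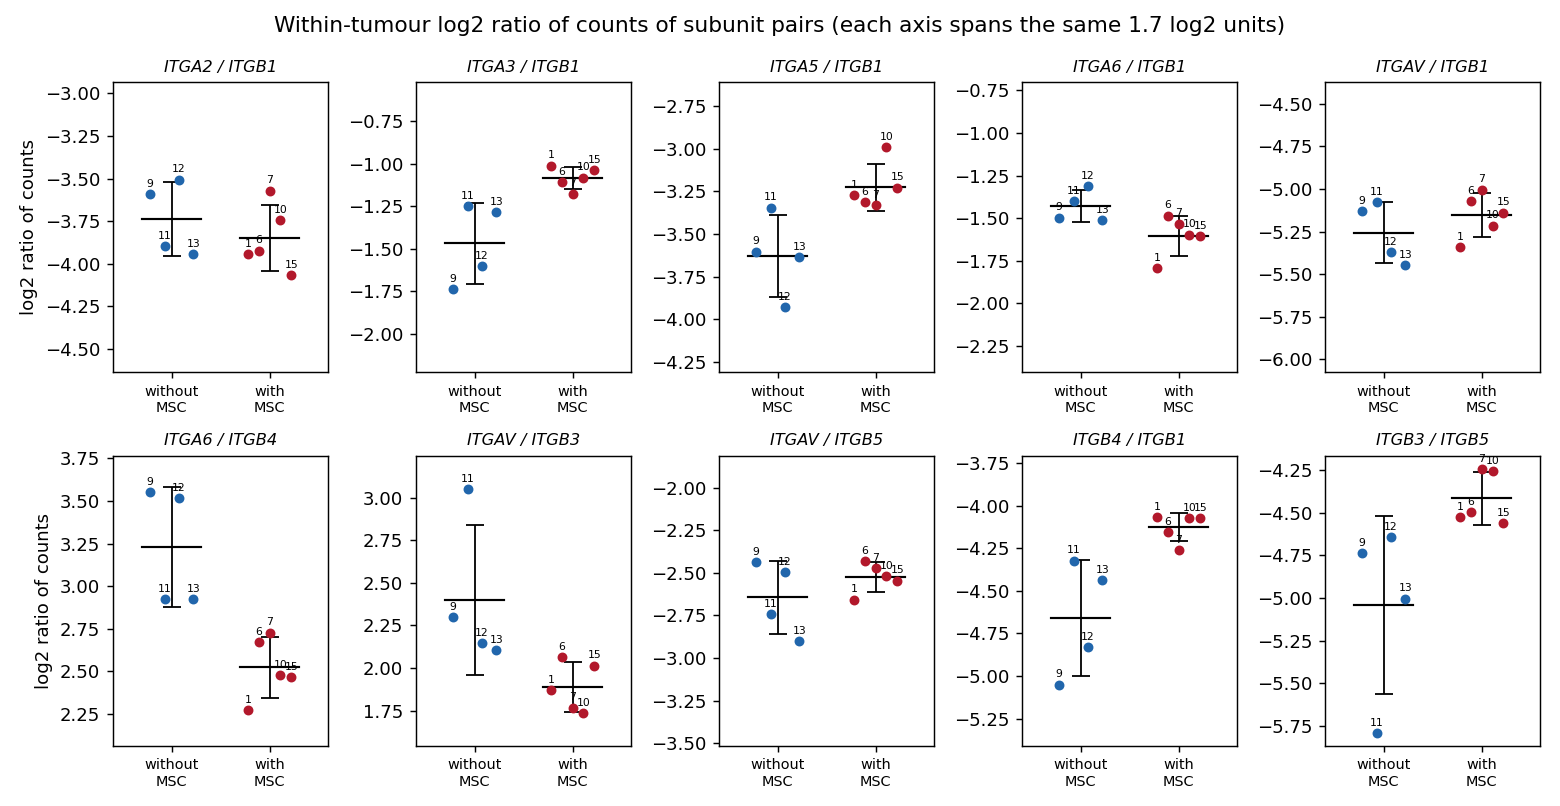
Log2 ratio of counts within each tumour for 10 pairs of subunits, 1 point per tumour with its number, blue without MSC (n = 4) and red with MSC (n = 5), with the mean and SD; each vertical axis spans the same log2 distance. The groups do not overlap for ITGA3/ITGB1, ITGA5/ITGB1, ITGA6/ITGB4, ITGAV/ITGB3, ITGB4/ITGB1 and ITGB3/ITGB5.

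The pairs that differed join genes of unlike base composition in several cases, and the pair result changed with it. After the smooth on GC content and length was subtracted, 0 of 10 pairs passed the exact permutation test adjusted over them, with 4 at an unadjusted p under 0.05. The difference fell to 0.05 for ITGA3/ITGB1, 0.18 for ITGA5/ITGB1 and 0.16 for ITGB4/ITGB1, while it was 0.67 for ITGB3/ITGB5 and -0.39 for ITGA6/ITGB4 (exact permutation adjusted p = 0.0529 for these last 2). ITGAV/ITGB3 stood at -0.39 as well (exact permutation adjusted p = 0.272). ITGAV/ITGB5, which had not passed at 0.12, moved to 0.28 (exact permutation adjusted p = 0.0529). The ratio of RNA counts says nothing of how much of each protein chain is paired.

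The other 16 integrin subunit genes were mostly near the floor: 11 did not pass the filter on low counts and reached at most 0.685 CPM in any tumour. Of the 5 that were tested, 1 rose and 1 fell, against 4.18% and 3.6% of all tested genes. ITGB2, the beta chain of leukocyte integrins, was 7.80 ± 1.36 CPM with MSC and 4.66 ± 1.16 CPM without (log2 0.75 ± 0.21, edgeR adjusted p = 0.0324), a call lost after the GC and length correction, in limma-voom, under scaling by library size alone and without tumour 1, 7, 9, 10, 12 or 15. Its leukocyte partners ITGAL, ITGAM, ITGAX and ITGAD were at most 0.131 CPM, and the leukocyte markers CD3E and FCGR3A under 0.2 CPM. The 8 leukocyte markers summed to 96.0 to 139 CPM without MSC and 139 to 209 CPM with MSC, most of it CD68. Of the 4 that were tested, CD68 was higher with MSC (log2 0.52 ± 0.15, edgeR adjusted p = 0.0371). LYZ (-0.82 ± 0.40), CD14 (-0.45 ± 0.67) and CSF1R (0.01 ± 0.28) did not pass. PTPRC, the pan-leukocyte marker CD45, was 3.58 CPM in tumour 1 and at most 0.543 CPM elsewhere. The part of leukocytes in the ITGB2 difference was not tested. ITGAE, the alpha chain of the receptor that binds E-cadherin, fell to 58.3 ± 8.27 CPM, from 85.1 ± 10.9 CPM (log2 -0.54 ± 0.12, edgeR adjusted p = 0.0112), with no overlap between the groups. That call was lost without tumour 12 (adjusted p = 0.0538), and its partner ITGB7 was at most 0.0359 CPM.

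Of the ligands, 3 of 10 tested collagen genes and 3 of 12 genes for RGD and related ligands rose in edgeR, and 0 fell. Over all tested genes 4.18% rose and 3.6% fell. The basement membrane collagens COL4A1 (log2 0.98 ± 0.19, edgeR adjusted p = 0.00666) and COL4A2 (0.87 ± 0.16, adjusted p = 0.00559), ligands of ITGA2 receptors among others, kept their calls in all 9 fits without 1 tumour. COL1A2 (2.41 ± 0.51) is itself a fibroblast marker and was 8.45 CPM in tumour 15 and at most 2.64 CPM elsewhere, with a log2 change of 1.61 without that tumour, and it lost its call without tumour 12 (adjusted p = 0.0765) and with limma-voom (adjusted p = 0.149). Among laminin chains, LAMA3 (log2 0.35 ± 0.24, edgeR adjusted p = 0.395) and LAMB3 (0.33 ± 0.15, adjusted p = 0.169) did not pass. FN1, the ligand of the ITGA5 receptor, was 289 ± 75.2 CPM with MSC and 182 ± 49.97 CPM without (log2 0.67 ± 0.19, edgeR adjusted p = 0.0477). It no longer passed without tumour 7, 9, 10, 11, 12 or 15 (edgeR adjusted p up to 0.163). The FN1 call was also lost with DESeq2, library size only, upper-quartile factors or no filter on low counts (adjusted p from 0.0537 to 0.126). TGFB1 (0.47 ± 0.12) and MFGE8 (0.63 ± 0.14), an RGD protein of milk fat globules, rose as well. TGFB1 lost its call after the GC and length correction and without tumour 1, 9, 10 or 12, and MFGE8 without tumour 9. The median log2 change was 0.92 for the collagens and 0.38 for the RGD list. The collagen median includes COL1A1 and COL3A1, which did not pass and were 55.4 and 21.2 CPM in tumour 15 but at most 26.1 and 1.55 CPM elsewhere, and it was not computed without that tumour.

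Among proteins that sit beside integrins in the membrane, 4 of 9 hemidesmosome and tetraspanin genes rose, as did 4.18% of all tested genes. These were 4 of the 6 tetraspanins on the list. CD151, the tetraspanin bound to ITGA3 and ITGA6 receptors, measured 101, 125, 89.0 and 190 CPM in tumours 9, 11, 12 and 13 without MSC and 241, 232, 205, 249 and 259 CPM in tumours 1, 6, 7, 10 and 15 with MSC. The groups did not overlap, and CD151 rose with a log2 change of 0.91 ± 0.17 (edgeR adjusted p = 0.00621), which held in all 9 fits without 1 tumour and was 0.77 after the GC and length correction. CD9 (0.48 ± 0.11), CD81 (0.52 ± 0.14) and TSPAN4 (0.51 ± 0.14) rose too, and the correction ended the calls of CD81 and TSPAN4. Without tumour 9 or 12 none of these 3 passed in edgeR, and CD81 and TSPAN4 were lost without tumour 1 or 6 as well, CD81 also without 10 or 15. The tetraspanins CD63 (0.19 ± 0.13) and CD82 (-0.05 ± 0.12) did not pass, nor did the others on the list. These were the plakins PLEC (0.37 ± 0.30) and DST (0.09 ± 0.14) and the hemidesmosome collagen COL17A1 (-0.21 ± 0.17).

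For proteins inside the cell, the shares called were near the 7.78% of all tested genes called in either direction. Of 18 tested activators and adaptors, 0 rose and 1 fell, with a median log2 change of 0.13, and TLN1 (0.15 ± 0.10), FERMT2 (0.27 ± 0.12) and ILK (0.64 ± 0.20, edgeR adjusted p = 0.0606) did not pass. The gene that fell was ITGB1BP1, whose product ICAP1 binds the ITGB1 tail shown above and competes with talin (log2 -0.38 ± 0.11, edgeR adjusted p = 0.0340), a call kept only in the fit without tumour 13 among the 9 that left out 1 tumour, and lost with limma-voom. Of 19 focal adhesion signalling genes, 2 rose and 0 fell, with a median of 0.13. These were the LIM protein ZYX (0.50 ± 0.14, edgeR adjusted p = 0.0387) and the kinase SRC (0.46 ± 0.14, edgeR adjusted p = 0.0454), and both lost their calls after the GC and length correction, with limma-voom, with library size only and in 7 and 8 of the 9 fits without 1 tumour. The focal adhesion kinase PTK2 (-0.05 ± 0.11) did not pass.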

How the data were processed

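The authors deposited whole-number counts per gene symbol, 1 table per tumour, with no normalization. CASAVA 1.8.1, TopHat 1.4.0, HTSeq and the build hg19 appear in the submitters' processing notes. For the annotation, the strand setting and any removal of mouse reads, details were not given in the sources used here. Lines of reads assigned to no gene, 10.2 to 12.1% of counts, were left out. No 2 replicates agreed within sampling noise (chi-square per degree of freedom at least 23.2).

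Counts were fitted with edgeR 4.0.16 in R 4.3.3 (filterByExpr, TMM, robust quasi-likelihood, Benjamini-Hochberg over all genes, threshold 0.05). SE is the log2 change divided by the square root of F. Pair ratios used a prior count of 0.5. The GC correction took a spline (4 degrees of freedom) of GC content and another of log length, from GENCODE release 29 exons, found by symbol for 96.2% of the genes tested. The fit was tested on simulated data. Alternatives were DESeq2 1.42.0, limma-voom (limma 3.58.1), other scaling and filters, a threshold of 0.10 and leaving out tumours. Members and gene lists were chosen with earlier results of these data known. Genes named are the 10 subunits and up to 4 called genes per list by smallest p, plus others chosen after their values were seen. Results of some genes are not reported here.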

Additional observations from a re-analysis of the deposited data

Results flagged for a closer look

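Of 44 sets of values, the CPM of 10 subunits and 12 pair ratios in each group, 2 held a tumour far from the rest by Dixon's test, and chance flags about 1 set in 20. Both were of ITGB6. It was 0.0689 CPM in tumour 13 without MSC and 0 in the other 3 tumours of that group, and 0.0202 CPM in tumour 10 with MSC and 0 in the other 4. These values are 3 counts and 1 count.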

How the results depend on the processing

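The 4 calls among the 9 tested subunits were also made with DESeq2, limma-voom, DESeq2 size factors, upper-quartile factors, no filter, robust=FALSE and the GC and length correction. Library size only gave 3, and so did a filter of 5 CPM in 4 libraries, which removes ITGB3. Leaving out 1 tumour gave 0 to 4 subunits higher, and 0 passed without tumours 15 and 12 together (4 at an unadjusted p under 0.05 in edgeR). No subunit was called lower in any fit. ITGA6 ranged from -0.0162 (without tumour 9) to 0.132, and was -0.0126 without tumour 15. Over all genes, 563 were higher and 484 lower, with 151 to 985 and 94 to 863 when 1 tumour was left out, 201 and 101 without tumours 15 and 12 together, 856 and 790 with DESeq2, 956 and 888 at a threshold of 0.10, and 289 lower with limma-voom. Of the 12 pairs, 6 differed, also with a prior count of 5, and 0 to 7 with 1 tumour left out. The smallest p is then 0.0286 or 0.0357, which adjusts to 0.0571 or 0.0714 when 6 pairs reach it, so none can pass. Without tumour 6, 7 pairs reached it and passed (exact permutation adjusted p = 0.0490). Pairs without overlap stay at the smallest p whichever tumour is left out. The p-values of these fits therefore cannot show whether such a pair rests on 1 tumour. Without tumours 15 and 12 together 0 pairs passed, since no p under 0.0571 is possible, and ITGA2/ITGB1 was 0.0161. The correction for GC content and length, added for pairs after seeing the data, left 0. It can also remove true differences that follow GC content. No paired analysis was possible because the groups share no replicate numbers. ITGB3 and ITGB6 are limited by depth.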

Other observations

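The genes whose log2 CPM, centred on the mean of the 9 tumours, lay nearest to each subunit that rose were found among 10785 genes averaging 100 counts or more, by the root mean square difference. For ITGB4 they were L1CAM (0.0946), ITGA3 (0.0977) and CHPF (0.126), and for ITGA3 they were CHPF (0.0961), ITFG3 (0.0968) and ITGB4 (0.0977). ITGA3 and ITGB4, which do not pair with one another, were thus each among the 3 nearest genes of the other. For ITGA5 the nearest included the cytokine LIF (0.105) and NFE2L1 (0.115), against a median of 0.437 over all genes compared. For ITGB3 they were YPEL2 (0.204), DSG2 (0.228) and ANO6 (0.234). These tumours also differ in depth and in the GC trend, which such likeness shares.

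The highest of the 9 tumours was tumour 15 for 6 of the 9 tested subunits and tumour 10 for the other 3, both with MSC. The lowest was tumour 9 or tumour 12 for 3 subunits each, tumour 11 for 2 and tumour 1 for 1. As a share of the 5 alpha subunits per kilobase, ITGA3 was 43.8 ± 4.26% without MSC and 50.8 ± 2.49% with MSC, and ITGA6 was 37.6 ± 3.39% and 29.7 ± 2.20%. The ITGA3 groups overlapped slightly, at 48.377% in the lowest tumour with MSC and 48.391% in the highest without. Those of ITGA6 did not overlap (at most 32.0% with MSC, at least 34.6% without). A share falls when another member of the sum rises. The level of ITGA6 itself was 38.2 ± 4.48 RPKM without MSC and 39.6 ± 6.23 RPKM with MSC, a difference that did not pass. These shares were not corrected for GC content, which was 61.3% in ITGA3 and 42.9% in ITGA6 transcripts.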
